A study of Homo sapiens with 24 samples.

Results

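The 34 genes described here encode the enzymes that build cholesterol and fatty acids and the proteins that sense and move sterols. They were the rows of the deposited expression table whose gene name was on the list, 34 of 58735 genes. All 34 were found and all 34 passed the filter on low values (at least 1 FPKM, the fragments per kilobase of gene and depth of the library, in 3 or more libraries) in every comparison. By role, 18 are enzymes of the sterol pathway, 9 make, lengthen or desaturate fatty acids, and 7 sense or transport sterols.

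The human lines Nalm6 and Sem, both grown from acute lymphoblastic leukaemia of B cell precursors, were profiled by RNA sequencing, with 3 libraries for each of 8 groups. Each line had an untreated group and 3 groups kept for 24 h with a drug: 10 µM ibrutinib (an inhibitor of the kinase BTK), asparaginase (an enzyme that removes asparagine from the medium), or both together, called the combination here. For asparaginase the labels give 1 IU/ml in one place and 0.5 IU/ml in another, and the harvest time of untreated cells was not stated. All cells were kept in RPMI with fetal bovine serum. The labels speak of triplicates but not of separate cultures, so the p-values reflect only how far these libraries scatter, which may be technical.

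Cells make cholesterol from acetyl-CoA by way of mevalonate, isoprenoids, squalene and lanosterol, and fatty acids from the same acetyl-CoA by way of malonyl-CoA and palmitate. The transcription factors encoded by SREBF1 and SREBF2 switch on the enzymes of both routes. When sterols are scarce SCAP escorts them to the Golgi, where they are cut free, and when sterols are plentiful INSIG1 and INSIG2 hold them in the endoplasmic reticulum. Growing leukaemia cells use both routes to build membranes, and serum supplies part of the same lipids from outside.

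These factors bind the sterol regulatory element, often beside a CCAAT box that binds NF-Y. RefSeq windows of 300 bases around the gene start (250 before it and 50 after, build GRCh38.p14) were at hand for 30 of the 34 genes and searched on both strands; ACAT2, FDFT1, SQLE and FASN had none. Below, 4 stretches upstream of genes that the results turn on are printed 5′ to 3′ along the gene's strand, with the letters TCACNCCAC (or the shorter TCACNCCA) and CCAAT, either strand, in capitals. SREBF2 (chr22:41832955-41833014, plus strand) held the full element, MSMO1 (chr4:165327474-165327603, plus strand) its shorter form, and HMGCS1 (chr5:43313513-43313587, minus strand) and INSIG1 (chr7:155297688-155297767, plus strand) are shown for a CCAAT box. The RefSeq start of each of the 4 lies inside the gene as the expression table places it, so the stretches were chosen to end before the table's start:

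SREBF2: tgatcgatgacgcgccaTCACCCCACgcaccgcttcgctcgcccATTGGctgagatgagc

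MSMO1: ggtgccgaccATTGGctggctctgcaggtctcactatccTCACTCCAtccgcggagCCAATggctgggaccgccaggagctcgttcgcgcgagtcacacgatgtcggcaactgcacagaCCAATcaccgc

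HMGCS1: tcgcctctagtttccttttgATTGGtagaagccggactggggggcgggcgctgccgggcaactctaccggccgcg

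INSIG1: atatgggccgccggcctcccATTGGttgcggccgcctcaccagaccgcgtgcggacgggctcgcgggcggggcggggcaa

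The full element was in the window of 1 of 30 members (3.33%) and of 1.39% of all 27305 genes with a window. Its form without the last base was in 3 of 30 (10%) against 4.8% of all genes. CCAAT was in 22 of 30 members (73.3%) against 39.7% of all genes, and the GC box GGGCGG in 28 of 30 (93.3%) against 48.3%. A gene counted if any of its windows held the letters. By window, CCAAT was in 26 of 41 member windows against 34.6% of all 35116. GGGCGG was in 36 of 41 against 45%. The 27305 genes were not filtered on expression, so a comparison with expressed genes only was not made. The shorter element ends in CCA and can share those bases with a CCAAT box, which it does not in the stretches shown. A match is a string of letters and not a measured binding site. CCAAT and GGGCGG were searched after the sterol element.

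Each library held 15 to 18.1 M reads in genes. All deposited FPKM values of 1 or more had lost their decimal point and were restored from gene lengths, whole reads and the other libraries of the line, so the levels and changes given here rest on that restoration. Of 10 markers of B cell precursors, 10 reached 1 FPKM in Nalm6 and 7 in Sem, where RAG1, DNTT and BLNK did not. Of 6 T and NK cell markers TRAC and NKG7 reached it in both lines. Of 6 myeloid markers LYZ and CD33 reached it in Nalm6 and LYZ and CSF1R in Sem, and of 6 erythroid and stromal markers none did. Summed B cell precursor markers were 1590 to 1680 FPKM in untreated Nalm6, 1950 to 2080 with ibrutinib, 1610 to 1660 with asparaginase and 2220 to 2270 with the combination, and 430 to 492 over all Sem groups. Summed T and NK cell markers were 5 to 5.81 FPKM in untreated Nalm6, 1.47 to 2.44 with ibrutinib, 7.54 to 11.7 with asparaginase and 4.25 to 6.42 with the combination. The same sums in Sem were 109 to 124, 84.2 to 91.6, 102 to 105 and 96.7 to 99.7. Summed myeloid markers were lower in every treated group of both lines than in untreated cells (14.1 to 16.5 untreated and 6.82 to 10.7 treated in Nalm6, 5.65 to 6.87 and 2.59 to 4.48 in Sem). The part of these shifts in the results was not tested, and in bulk RNA fewer cells of a type cannot be told apart from less RNA per cell. Earlier work on these data named 5 libraries that stood apart in their groups (untreated 2, asparaginase 1 and combination 1 of Nalm6, untreated 2 and ibrutinib 2 of Sem). The trend of expression on GC content is given in log2 units per 10 points of GC. In Nalm6 it was -0.0556 in untreated 2, -0.0317 in asparaginase 1 and -0.116 in combination 1. The others of their groups lay between 0.0395 and 0.0763, but all ibrutinib libraries were also negative (-0.031, -0.0344 and -0.0634). In Sem the trend was 0.0544, 0.00645 and 0.00519 untreated and -0.0251, -0.0484 and -0.0266 with ibrutinib. After a correction for GC and length, 26 of the 34 genes fell and 2 rose with ibrutinib in Nalm6, and 20 and 5 in Sem (limma, adjusted p under 0.05). The shares of all genes after this correction are not given here.

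Untreated cells of the 2 lines differed most in ELOVL6 and FADS2, enzymes of long and unsaturated fatty acids, and both were higher in Sem. ACLY, which splits citrate into cytosolic acetyl-CoA, had the highest level per length in both lines, 108 ± 8.55 FPKM in Nalm6 and 106 ± 2.13 in Sem (SD, n = 3). CYP51A1, the lanosterol demethylase, had the lowest in both, 2.12 ± 0.219 and 3.3 ± 0.529. It shares 79.4% of its exonic bases with another gene on the same strand. How reads in shared bases were counted is not known here, so its level may be too low. Of the 34 genes 22 were higher and 4 lower in untreated Sem than in untreated Nalm6 by limma (background: 34% of all genes tested were higher and 31.8% lower; called means an adjusted p under 0.05). ELOVL6, which lengthens palmitate to stearate, measured 6.26 ± 0.381 FPKM in Nalm6 and 67.2 ± 2.51 in Sem (3.23 ± 0.044, limma adjusted p = 3.31e-22; changes and differences are of log2(FPKM + 1), with ± the SE). FADS2, the first desaturase of polyunsaturated fatty acids, measured 10 ± 0.689 and 70.7 ± 1.63 FPKM (2.71 ± 0.062, limma adjusted p = 1.8e-18). The 4 genes lower in Sem were DHCR7 (-0.85), ACSS2 (-0.54), LSS (-0.47) and SCD (-0.26). The call of INSIG2, higher in Sem by 0.23, was lost on leaving out Nalm6 untreated 1 or Sem untreated 2 or 3 (adjusted p = 0.0639 to 0.119).

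In Nalm6 most of the genes fell with each treatment, and the median fall was deepest with the combination. With ibrutinib 22 of 34 fell and 1 rose (limma, adjusted p under 0.05), where 7.46% of all genes tested fell and 4.99% rose. With asparaginase 29 fell and 2 rose against a background of 28% and 28.2%. With the combination 28 fell and 4 rose against 31.3% and 32.4%. The median log2 change of the 34 genes was -0.35 with ibrutinib, -0.72 with asparaginase and -0.94 with the combination, and that of all genes tested -0.008, 0.021 and 0.023. Rescaling to TPM moved the all-gene median to 0.171 with asparaginase and 0.188 with the combination and left 27 and 24 of the 34 genes lower, 4 and 4 higher. All background shares given here are those of the main fits, and none is given for this or any other setting. These comparisons share their untreated libraries, as do those in Sem.

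In Sem the median changes were smaller in size. With ibrutinib 20 fell and 6 rose (background 21.3% and 20.2%), with 12 lower and 9 higher after TPM rescaling and 11 and 7 after quantile normalization. With asparaginase 28 fell and 0 rose by limma (background 15.1% and 11.4%). With the combination 23 fell and 3 rose (background 26.3% and 26.6%), and 15 and 7 after quantile normalization. The median log2 change was -0.14, -0.36 and -0.26, and that of all genes tested 0.011, -0.004 and 0.022.

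**Figure D1:**
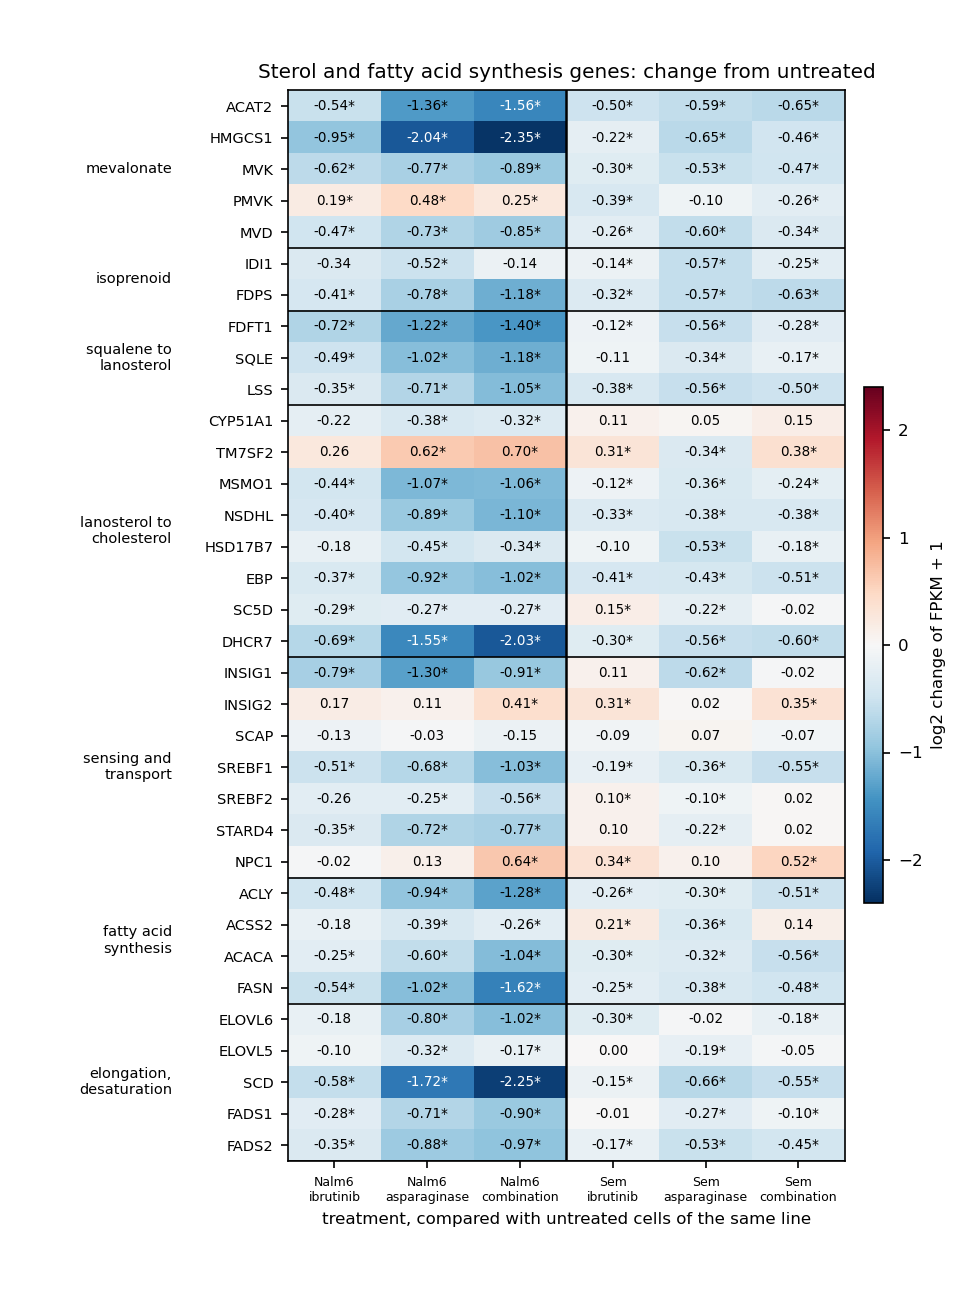
Log2 change of FPKM + 1 against untreated cells of the same line for each of the 34 genes (rows, grouped by role) in 6 comparisons (columns); colour and number give the change and a star marks a limma adjusted p under 0.05. With the combination the Nalm6 column runs from -2.35 (HMGCS1) to 0.70 (TM7SF2), and the Sem column from -0.65 (ACAT2) to 0.52 (NPC1).

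Summed over the 18 sterol enzymes, Nalm6 libraries held 465, 494 and 476 FPKM untreated, 327, 335 and 346 with ibrutinib, 252, 245 and 247 with asparaginase and 241, 225 and 230 with both. All 3 treated groups lay below untreated, and every combination library lay below every asparaginase library. In Sem the sums were 581, 562 and 579 FPKM untreated, 487, 489 and 491 with ibrutinib, 406, 397 and 419 with asparaginase and 447, 442 and 444 with both. There the combination lay between ibrutinib and asparaginase, and no group overlapped another. For the 9 fatty acid enzymes the group means were 343 ± 21, 254 ± 2.52, 169 ± 4.73 and 141 ± 4.58 FPKM in Nalm6 (untreated, ibrutinib, asparaginase, combination; SD, n = 3) and 563 ± 13, 500 ± 7.77, 446 ± 6.66 and 442 ± 7.02 in Sem, where asparaginase and combination libraries overlapped. Gene by gene, the mean fell in the order untreated, ibrutinib, asparaginase, combination for 20 of 34 genes in Nalm6 and 9 in Sem. The combination had the lowest mean for 22 genes in Nalm6 and 9 in Sem, and asparaginase for 7 and 19. These orders were not counted over all genes, so whether they are unusual for the 34 genes is not known.

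**Figure D2:**
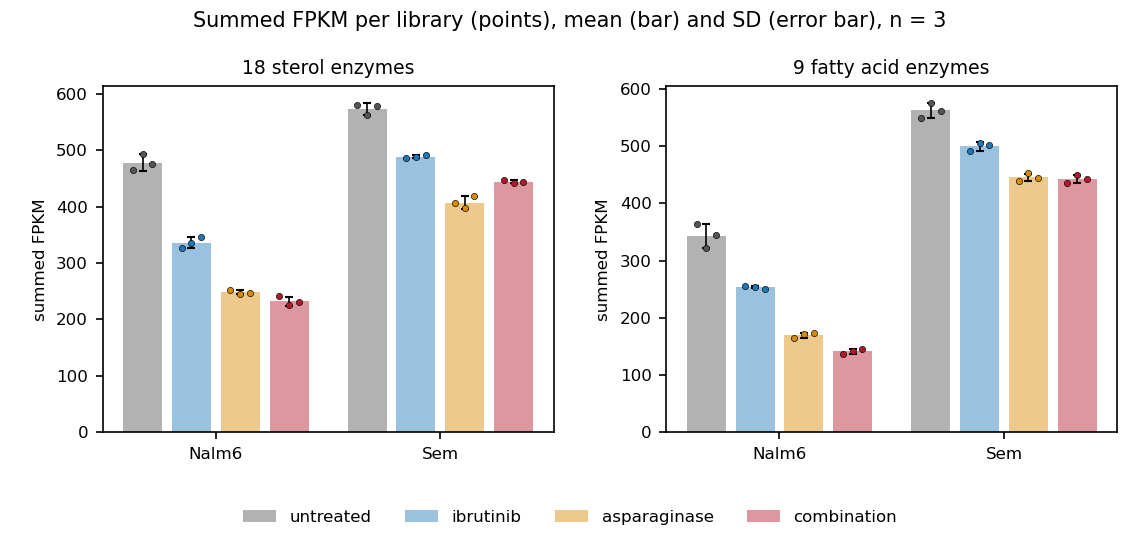
Summed FPKM of the 18 sterol enzymes (left) and the 9 fatty acid enzymes (right) in every library (points), with the group mean (bar) and SD (error bar, n = 3). In Nalm6 the mean of the sterol sum steps down from 478 to 232 FPKM, and in Sem asparaginase has the lowest mean, 407 FPKM.

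Among the 5 enzymes of the mevalonate steps, 4 fell in all 3 comparisons with untreated in Nalm6 and PMVK rose in all 3. Of all genes tested, 7.46% fell and 4.99% rose with ibrutinib, 28% and 28.2% with asparaginase and 31.3% and 32.4% with the combination. The share in all 3 at once was not computed. HMGCS1 (ENSG00000112972, chromosome 5, 43289395 to 43313512, minus strand, GRCh38) encodes the synthase that makes HMG-CoA. HMGCS1 measured 76.3, 85.8 and 77.2 FPKM untreated, 40, 40.3 and 42.3 with ibrutinib, 19.6, 18.1 and 18.2 with asparaginase and 16.4, 13.5 and 14.4 with both in Nalm6. No group overlapped another, and the combination mean was 18.6% of the untreated one (-2.35 ± 0.07, limma adjusted p = 8.84e-10), the largest fall of the 34 genes. In Sem HMGCS1 measured 79.4, 75.8 and 79.9 FPKM untreated, 68, 67.4 and 66.5 with ibrutinib, 50.1, 48.1 and 50.1 with asparaginase and 57.3, 56.1 and 56.1 with both (-0.46 ± 0.031, limma adjusted p = 4.93e-07 with the combination), again without overlap but with asparaginase lowest. ACAT2 (ENSG00000120437, chromosome 6, 159760328 to 159779055, plus strand) encodes a thiolase that joins acetyl-CoA units at the start of the route. ACAT2 measured 26.2, 29.7 and 30.8 FPKM untreated, 18.3, 19.5 and 21 with ibrutinib, 11.3, 10.4 and 10.2 with asparaginase and 9.84, 8.84 and 8.6 with both in Nalm6 (combination -1.56 ± 0.075, limma adjusted p = 2.04e-08). It had the largest fall with the combination in Sem (-0.65 ± 0.044, limma adjusted p = 5.36e-07), where it measured 37, 34.2 and 36 FPKM untreated, 24.8, 24.5 and 25.5 with ibrutinib, 24.6, 22.2 and 23.7 with asparaginase and 22.6, 21.6 and 22.9 with both. All treated Sem libraries lay below untreated, while the asparaginase libraries overlapped those of the other treated groups.

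MVK, the mevalonate kinase, and MVD, whose product is isopentenyl diphosphate, fell with the combination by 0.89 and 0.85 on the log2 scale in Nalm6 and by 0.47 and 0.34 in Sem. MVD measured 13.5, 13 and 13.3 FPKM untreated, 10.9, 11.2 and 10.7 with ibrutinib, 8.45, 8.33 and 8.56 with asparaginase and 10.8, 10.4 and 9.63 with both in Sem, where asparaginase was lowest and the ibrutinib and combination libraries overlapped. The call of MVK in Sem with ibrutinib (-0.30) was lost on leaving out untreated 1 or 2 or ibrutinib 1 or 3 (adjusted p = 0.0606 to 0.0814). PMVK (ENSG00000163344, chromosome 1, 154924734 to 154936991, minus strand), the kinase between these steps, stood against the others in Nalm6. It measured 20.8, 22.5 and 21.9 FPKM untreated, 23.8, 25.3 and 25.6 with ibrutinib, 30.9, 30.9 and 30.1 with asparaginase and 25.4, 25.1 and 27.5 with both, so that all 9 treated libraries lay above all 3 untreated ones. PMVK changed by 0.48 ± 0.049, limma adjusted p = 1.12e-05, with asparaginase and by 0.25 ± 0.049, limma adjusted p = 0.000915, with the combination. Its ibrutinib call in Nalm6 (0.19 ± 0.049, limma adjusted p = 0.0296) was lost on leaving out untreated 1 or 3 or ibrutinib 2 or 3 (adjusted p = 0.0829 to 0.101). In Sem PMVK measured 43.2, 38.8 and 38 FPKM untreated, 30.1, 29.6 and 30.9 with ibrutinib, 38, 33.1 and 40.8 with asparaginase and 33.1, 32.5 and 34.1 with both and fell with ibrutinib (-0.39 ± 0.068, limma adjusted p = 0.000926) and the combination (-0.26 ± 0.068, limma adjusted p = 0.00782), while asparaginase overlapped untreated (-0.10, limma adjusted p = 0.315).

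The isoprenoid enzymes IDI1 and FDPS, which feed both cholesterol and the lipid anchors of proteins, parted in Nalm6. FDPS (ENSG00000160752, chromosome 1, 155308748 to 155320666, plus strand) encodes farnesyl diphosphate synthase. FDPS measured 42.2, 47.2 and 44.8 FPKM untreated, 33.3, 33.4 and 33.7 with ibrutinib, 25.9, 25.1 and 25.6 with asparaginase and 18.4, 18.5 and 20.6 with both in Nalm6, 4 groups without overlap (combination -1.18 ± 0.052, limma adjusted p = 1.16e-08). FDPS in Sem measured 57.1, 51.6 and 56.1 FPKM untreated, 45, 43.2 and 43.2 with ibrutinib, 35.6, 37.2 and 37.3 with asparaginase and 35.9, 34.6 and 34.5 with both (-0.63 ± 0.041, limma adjusted p = 4.1e-07), with asparaginase and combination libraries overlapping. IDI1 (ENSG00000067064, chromosome 10, 1039152 to 1049170, minus strand) encodes the isomerase before it. IDI1 measured 54.1, 69.8 and 59.5 FPKM untreated, 45.4, 45.3 and 52.8 with ibrutinib, 47.7, 38.6 and 40.8 with asparaginase and 66.2, 51 and 49.8 with both in Nalm6, and its combination libraries overlapped the untreated ones (-0.14 ± 0.13, limma adjusted p = 0.366). With asparaginase alone it fell in Nalm6 (-0.52 ± 0.13, limma adjusted p = 0.00504). In Sem IDI1 measured 63.2, 60.8 and 64 FPKM untreated, 56.6, 56.6 and 57.8 with ibrutinib, 42.3, 40.5 and 42.7 with asparaginase and 51.4, 52.9 and 52.8 with both, with all 4 groups apart and asparaginase lowest (-0.57 ± 0.032, limma adjusted p = 4.17e-07). Its smaller fall with ibrutinib in Sem (-0.14) turned to 0.04 under quantile normalization.

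The 3 enzymes from squalene to lanosterol fell in every comparison with untreated in Nalm6. There 7.46%, 28% and 31.3% of all genes tested fell with ibrutinib, asparaginase and the combination. FDFT1 (ENSG00000079459, chromosome 8, 11795573 to 11839309, plus strand) encodes squalene synthase, the first step committed to sterols. FDFT1 measured 57.1, 57.3 and 58.3 FPKM untreated, 33.8, 35.4 and 34.2 with ibrutinib, 24.1, 23.8 and 24.6 with asparaginase and 21, 21.1 and 21.4 with both in Nalm6 (combination -1.40 ± 0.035, limma adjusted p = 5.33e-10). FDFT1 in Sem measured 78.8, 81.7 and 81 FPKM untreated, 72, 75.5 and 74.3 with ibrutinib, 52.9, 54.5 and 55.3 with asparaginase and 64.2, 68 and 65.6 with both (-0.28 ± 0.033, limma adjusted p = 3.19e-05). In both lines all 4 groups were apart, with the combination lowest in Nalm6 and asparaginase lowest in Sem. In Sem the call of FDFT1 with ibrutinib (-0.12) was lost on leaving out ibrutinib 1 (adjusted p = 0.0535), and its direction turned to 0.07 under quantile normalization. SQLE (ENSG00000104549, chromosome 8, 124998497 to 125022283, plus strand) encodes squalene epoxidase. SQLE measured 31.6, 32.3 and 30.4 FPKM untreated, 21.2, 22.3 and 23 with ibrutinib, 15.2, 14.7 and 15.2 with asparaginase and 13.9, 12.5 and 13.5 with both in Nalm6 (-1.18 ± 0.05, limma adjusted p = 7.84e-09 with the combination). SQLE in Sem measured 49, 51.6 and 52.1 FPKM untreated, 44.2, 48.6 and 48.6 with ibrutinib, 40.1, 39.7 and 40.1 with asparaginase and 46.2, 43.6 and 45.8 with both (-0.17 ± 0.043, limma adjusted p = 0.00615). In Nalm6 its groups did not overlap; in Sem ibrutinib and combination libraries did, and the combination's change turned to 0.02 under quantile normalization. LSS (ENSG00000160285, chromosome 21, 46188141 to 46228824, minus strand) encodes lanosterol synthase, which closes the rings to form lanosterol. LSS measured 27.7, 26.3 and 26.6 FPKM untreated, 20.4, 21.1 and 21.1 with ibrutinib, 14.2, 17 and 17.1 with asparaginase and 10.6, 13.9 and 13.1 with both in Nalm6 (-1.05 ± 0.091, limma adjusted p = 1.81e-06 with the combination). Its fall in Nalm6 with ibrutinib (-0.35) was lost on leaving out untreated 1, 2 or 3 or ibrutinib 1, 2 or 3 (adjusted p = 0.0522 to 0.0954). LSS in Sem measured 18.5, 19.4 and 19.4 FPKM untreated, 14.1, 14.7 and 14.5 with ibrutinib, 11.7, 13.5 and 12.8 with asparaginase and 13.7, 13.1 and 12.8 with both (-0.50 ± 0.048, limma adjusted p = 7.3e-06), with asparaginase and combination libraries overlapping below ibrutinib.

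Of the 8 enzymes from lanosterol to cholesterol, 7 fell and 1 rose in Nalm6 with the combination (background 31.3% and 32.4%). In Sem 5 fell and 1 rose (background 26.3% and 26.6%). The gene that rose was TM7SF2 in both. DHCR7 (ENSG00000172893, chromosome 11, 71428193 to 71452868, minus strand) encodes the reductase whose product is cholesterol. DHCR7 measured 27.5, 24.3 and 27.2 FPKM untreated, 16, 16.4 and 15.3 with ibrutinib, 7.48, 8.59 and 9.02 with asparaginase and 5.85, 5.84 and 5.41 with both in Nalm6, where the combination left 21.6% of the untreated mean (-2.03 ± 0.07, limma adjusted p = 2.13e-09) and no groups overlapped. DHCR7 in Sem measured 13.4, 15.3 and 13.7 FPKM untreated, 10.5, 11.6 and 11.7 with ibrutinib, 9.2, 8.85 and 9.74 with asparaginase and 9.08, 9.13 and 8.75 with both (-0.60 ± 0.058, limma adjusted p = 7.41e-06), with asparaginase and combination overlapping. TM7SF2 (ENSG00000149809, chromosome 11, 65111845 to 65116384, plus strand) encodes a sterol reductase that acts after CYP51A1. TM7SF2 measured 3.66, 3.21 and 3.11 FPKM untreated, 4.43, 4.23 and 3.89 with ibrutinib, 4.97, 6.22 and 5.72 with asparaginase and 5.09, 6.81 and 6.33 with both in Nalm6, so that every treated library lay above every untreated one. The rise was called with asparaginase (0.62 ± 0.1, limma adjusted p = 0.000353) and the combination (0.70 ± 0.1, limma adjusted p = 9.37e-05) but not with ibrutinib (0.26 ± 0.1, limma adjusted p = 0.116). TM7SF2 in Sem measured 6.49, 6.09 and 6.11 FPKM untreated, 8.05, 7.67 and 8.08 with ibrutinib, 4.69, 4.56 and 4.83 with asparaginase and 8.8, 8.06 and 8.29 with both. There it fell with asparaginase (-0.34 ± 0.044, limma adjusted p = 0.000248) and rose with ibrutinib (0.31 ± 0.044, limma adjusted p = 0.000279) and with the combination (0.38 ± 0.044, limma adjusted p = 3.33e-05), whose libraries overlapped each other.

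MSMO1 (ENSG00000052802, chromosome 4, 165327623 to 165343160, plus strand) encodes the oxidase that starts removal of methyl groups. MSMO1 measured 27.7, 28.9 and 26.4 FPKM untreated, 20, 19.6 and 20.9 with ibrutinib, 13.3, 12.1 and 12.6 with asparaginase and 14.1, 12.3 and 11.9 with both in Nalm6 (-1.06 ± 0.064, limma adjusted p = 1.09e-07 with the combination). MSMO1 in Sem measured 37, 36.3 and 38.2 FPKM untreated, 35.7, 32.8 and 33.8 with ibrutinib, 28.7, 27.8 and 29.5 with asparaginase and 31.1, 31.2 and 31.6 with both (-0.24 ± 0.038, limma adjusted p = 0.000272). Asparaginase and combination overlapped in Nalm6, and in Sem the 4 groups were apart with asparaginase lowest. Its ibrutinib call in Sem (-0.12) was lost on leaving out untreated 3 or ibrutinib 2 or 3 (adjusted p = 0.0671 to 0.0897) and its direction turned to 0.02 under quantile normalization. EBP (ENSG00000147155, chromosome X, 48521158 to 48528716, plus strand) encodes the sterol isomerase. EBP fell with the combination to 47.3% of untreated in Nalm6 (-1.02 ± 0.055, limma adjusted p = 5.21e-08) and, with 48.9, 42.6 and 47.3 FPKM untreated, 35.8, 33.7 and 33.9 with ibrutinib, 33.5, 32.6 and 35.7 with asparaginase and 32.9, 30.9 and 32.6 with both in Sem, to 69.5% (-0.51 ± 0.054, limma adjusted p = 1.4e-05). All treated Sem libraries lay below untreated. NSDHL, which works with HSD17B7 on the same methyl groups, fell by 1.10 with the combination in Nalm6 and by 0.38 in Sem on the log2 scale. HSD17B7 (ENSG00000132196, chromosome 1, 162790702 to 162812817, plus strand) measured 5.7, 5.05 and 5.26 FPKM untreated, 4.54, 5.32 and 4.95 with ibrutinib, 3.42, 3.49 and 3.26 with asparaginase and 4.34, 4.82 and 4.6 with both in Sem, with asparaginase apart below the rest (-0.53 ± 0.061, limma adjusted p = 0.000118). Its combination call in Sem (-0.18) was lost on leaving out untreated 1 or 3 or combination 1 or 3 (adjusted p = 0.0518 to 0.101).

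SC5D, the desaturase before DHCR7, measured 4.55, 5.72 and 5.25 FPKM untreated, 4.1, 3.78 and 4.27 with ibrutinib, 4.21, 4.09 and 4.03 with asparaginase and 4.12, 4.01 and 4.17 with both in Nalm6. All treated libraries lay below untreated and overlapped each other (asparaginase -0.27 ± 0.069, limma adjusted p = 0.00658, combination -0.27), and the ibrutinib call (-0.29) was lost on leaving out untreated 2 or 3 or ibrutinib 1 or 2 (adjusted p = 0.0607 to 0.0887). In Sem SC5D measured 8, 8.26 and 7.73 FPKM untreated, 8.81, 8.75 and 9.32 with ibrutinib, 6.61, 6.55 and 7.06 with asparaginase and 8.3, 8.02 and 7.26 with both, with ibrutinib above untreated (0.15 ± 0.052, limma adjusted p = 0.0402) and asparaginase below (-0.22 ± 0.052, limma adjusted p = 0.0101). The rise was lost on leaving out untreated 1 or 3, ibrutinib 1, 2 or 3, asparaginase 1 or combination 2 (adjusted p = 0.0511 to 0.133). CYP51A1, low throughout, fell in Nalm6 with asparaginase (-0.38) and the combination (-0.32) and was not called in Sem (0.05 and 0.15, with all 4 groups overlapping). Its values may miss reads in the bases it shares with another gene.

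**Figure D3:**
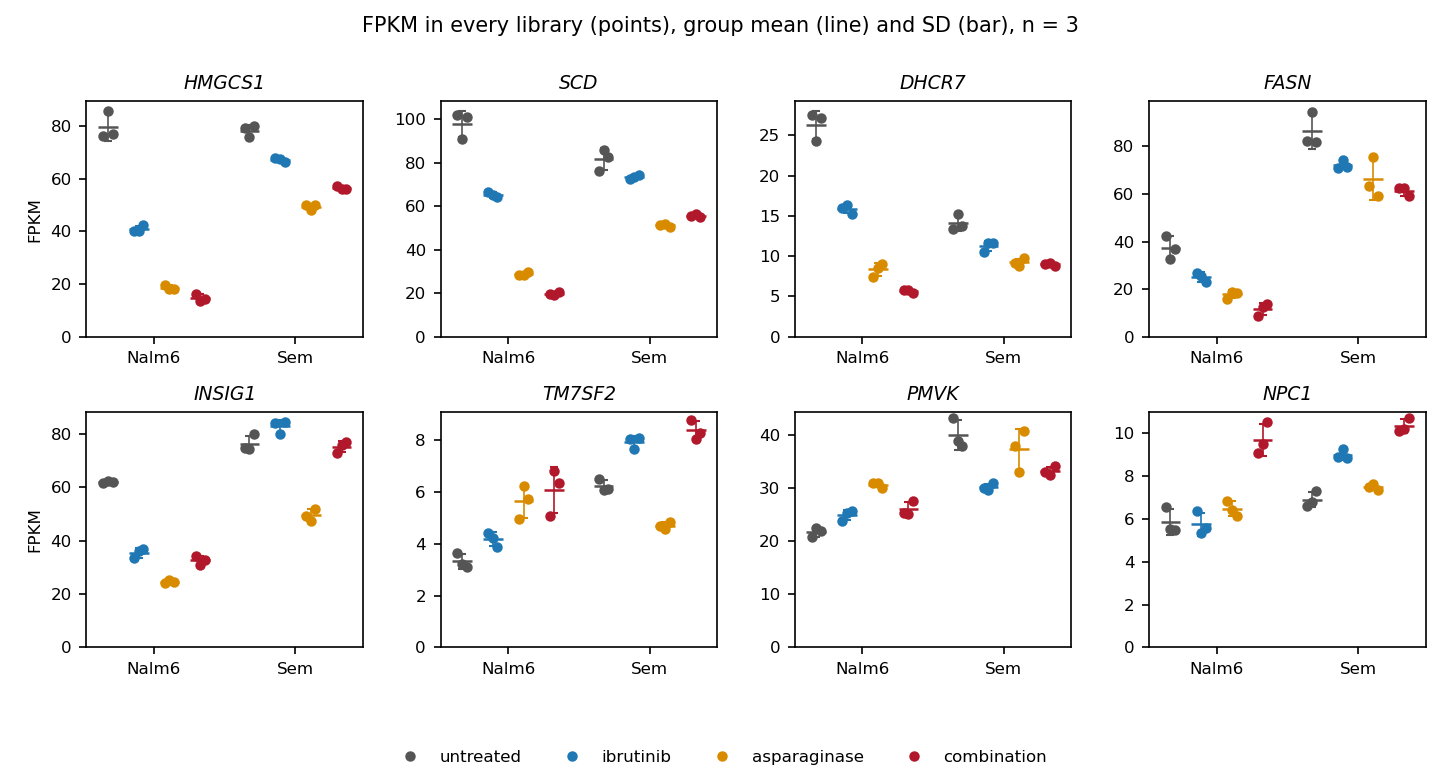
FPKM of 8 genes in every library (points), with the group mean (line) and SD (bar, n = 3), from 0 on a linear axis in both lines. HMGCS1, SCD, DHCR7 and FASN step down to the combination in Nalm6, INSIG1 is lowest with asparaginase in both lines, and PMVK rises in Nalm6 and falls in Sem with ibrutinib and the combination.

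Of the 5 genes for SREBP and its regulators (INSIG1, INSIG2, SCAP, SREBF1 and SREBF2), 3 fell and 1 rose with the combination in Nalm6 (background 31.3% and 32.4%), and 1 fell and 1 rose in Sem (background 26.3% and 26.6%). With 5 genes, the Sem counts are near that share. INSIG1 (ENSG00000186480, chromosome 7, 155297776 to 155310235, plus strand) encodes the protein that holds SREBP back and is itself a target of SREBP. INSIG1 measured 61.7, 62.4 and 61.9 FPKM untreated, 33.4, 36.1 and 36.8 with ibrutinib, 24.1, 25.1 and 24.4 with asparaginase and 34.4, 30.9 and 32.6 with both in Nalm6. Its combination libraries overlapped those with ibrutinib and lay above all asparaginase libraries (combination -0.91 ± 0.049, limma adjusted p = 5.47e-08, asparaginase -1.30 ± 0.049, limma adjusted p = 1.11e-08). In Sem INSIG1 measured 74.9, 74.5 and 79.8 FPKM untreated, 84, 80.1 and 84.3 with ibrutinib, 49.2, 47.3 and 52 with asparaginase and 72.9, 75.8 and 76.8 with both: asparaginase stood alone below the others (-0.62 ± 0.043, limma adjusted p = 2.84e-06), and the combination overlapped untreated (-0.02, adjusted p = 0.679). INSIG2 (ENSG00000125629, chromosome 2, 118088452 to 118110997, plus strand) encodes its relative with the same function. INSIG2 measured 4.73, 5.4 and 5.71 FPKM untreated, 6.05, 5.68 and 6.5 with ibrutinib, 6.11, 5.52 and 5.65 with asparaginase and 8.57, 6.82 and 6.66 with both in Nalm6 and rose with the combination (0.41 ± 0.091, limma adjusted p = 0.00241); ibrutinib (0.17) and asparaginase (0.11) overlapped untreated and were not called. INSIG2 in Sem measured 5.91, 6.54 and 6.57 FPKM untreated, 8.05, 8.65 and 7.61 with ibrutinib, 6.47, 6.12 and 6.78 with asparaginase and 9.03, 7.61 and 8.48 with both and rose with ibrutinib (0.31 ± 0.067, limma adjusted p = 0.00342) and the combination (0.35 ± 0.067, limma adjusted p = 0.00106), which overlapped each other above untreated.

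SCAP (ENSG00000114650, chromosome 3, 47413694 to 47477126, minus strand) encodes the escort. SCAP measured 18.3, 15.3 and 17.7 FPKM untreated, 16.2, 15.5 and 14.7 with ibrutinib, 15, 17.3 and 17.8 with asparaginase and 12.5, 17 and 16.6 with both in Nalm6 with all groups overlapping, and 19.2, 18.2 and 18.8 FPKM untreated, 16.7, 17.4 and 18.4 with ibrutinib, 19.4, 20.1 and 19.8 with asparaginase and 17.2, 18.4 and 17.6 with both in Sem. It was not called against untreated in either line. Its change with the combination was -0.15, 95% interval -0.39 to 0.09 in Nalm6, and -0.07, 95% interval -0.16 to 0.02 in Sem.

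SREBF2 (ENSG00000198911, chromosome 22, 41833079 to 41907308, plus strand) encodes the SREBP that favours sterol genes. SREBF2 measured 44.6, 38.3 and 43.3 FPKM untreated, 35, 36.1 and 33.6 with ibrutinib, 32.4, 36.5 and 36.8 with asparaginase and 24.3, 30.6 and 30.1 with both in Nalm6, where all 3 combination libraries lay below the rest (-0.56 ± 0.09, limma adjusted p = 0.000233). Its asparaginase call in Nalm6 (-0.25) was lost on leaving out untreated 1 or 3 or asparaginase 1 or 2 (adjusted p = 0.0507 to 0.124), and its direction turned to 0.01 under quantile normalization. In Sem SREBF2 measured 82, 85.5 and 80.6 FPKM untreated, 88.2, 87 and 92 with ibrutinib, 76.7, 76.9 and 76.9 with asparaginase and 82, 86.3 and 82.6 with both, with ibrutinib above (0.10 ± 0.034, limma adjusted p = 0.0303) and asparaginase below untreated (-0.10 ± 0.034, limma adjusted p = 0.0445). The ibrutinib call was lost on leaving out untreated 1 or 3 or ibrutinib 1 or 3 (adjusted p = 0.0532 to 0.118), and the asparaginase call on leaving out untreated 1 or 2, ibrutinib 1, asparaginase 1, 2 or 3 or combination 1 or 3 (adjusted p = 0.0552 to 0.122); the latter turned to 0.04 under quantile normalization. SREBF1 (ENSG00000072310, chromosome 17, 17810399 to 17837002, minus strand) encodes the SREBP that favours fatty acid genes. SREBF1 measured 18, 14.7 and 16 FPKM untreated, 11.5, 11.5 and 10.3 with ibrutinib, 8.16, 10.4 and 10.9 with asparaginase and 6.21, 7.83 and 8.33 with both in Nalm6 (-1.03 ± 0.12, limma adjusted p = 1.86e-05 with the combination). SREBF1 in Sem measured 29.9, 31.1 and 29.8 FPKM untreated, 26.2, 26.6 and 26.4 with ibrutinib, 22.2, 25.6 and 22.6 with asparaginase and 20.5, 20.5 and 20.1 with both (-0.55 ± 0.047, limma adjusted p = 2.88e-06). The 4 Sem groups were apart, with the combination lowest, whereas in Nalm6 the asparaginase libraries overlapped both other treated groups. Its ibrutinib call in Nalm6 (-0.51) was lost on leaving out untreated 1 or 3 or ibrutinib 1, 2 or 3 (adjusted p = 0.0511 to 0.0748).

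Of the sterol carriers, STARD4, a cytosolic transport protein, fell in Nalm6 with each treatment (-0.35, -0.72 and -0.77) and in Sem with asparaginase (-0.22, limma adjusted p = 0.00712), while the other 2 changes in Sem, 0.10 and 0.02, were not called. NPC1 (ENSG00000141458, chromosome 18, 23506184 to 23586898, minus strand) encodes the membrane protein that exports cholesterol from lysosomes. NPC1 measured 6.57, 5.52 and 5.48 FPKM untreated, 6.36, 5.34 and 5.55 with ibrutinib, 6.84, 6.43 and 6.15 with asparaginase and 9.05, 9.49 and 10.5 with both in Nalm6. There the combination libraries lay above the others, which all overlapped (0.64 ± 0.081, limma adjusted p = 3.95e-05). NPC1 in Sem measured 6.6, 6.8 and 7.29 FPKM untreated, 8.86, 9.23 and 8.82 with ibrutinib, 7.48, 7.63 and 7.32 with asparaginase and 10.1, 10.2 and 10.7 with both, 4 groups without overlap, with the combination highest (0.52 ± 0.043, limma adjusted p = 2.31e-06) and ibrutinib next (0.34 ± 0.043, limma adjusted p = 0.000112).

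All 4 genes of acetyl-CoA supply and fatty acid synthesis fell in Nalm6 with asparaginase and with the combination (28% and 31.3% of all genes tested fell). FASN (ENSG00000169710, chromosome 17, 82078333 to 82098332, minus strand) encodes the synthase that makes palmitate. FASN measured 42.5, 32.8 and 36.7 FPKM untreated, 26.9, 25.7 and 23 with ibrutinib, 15.9, 19 and 18.5 with asparaginase and 8.74, 12.6 and 13.6 with both in Nalm6, 4 groups without overlap (-1.62 ± 0.14, limma adjusted p = 2.31e-06 with the combination). Combination 1, a library that stood apart in GC trend, had the lowest value. It lay 0.53 on the log2 scale from the mean of the other libraries of its group. That was the largest such deviation of the 34 genes over all libraries. The ibrutinib call in Nalm6 (-0.54) was lost on leaving out untreated 1 or 3 or ibrutinib 1, 2 or 3 (adjusted p = 0.0671 to 0.114). In Sem FASN measured 82.3, 94.6 and 81.9 FPKM untreated, 71, 74.3 and 71.2 with ibrutinib, 63.5, 75.7 and 59.1 with asparaginase and 62.5, 62.7 and 59 with both (-0.48 ± 0.081, limma adjusted p = 0.000465), with all treated libraries below untreated and asparaginase overlapping both other treated groups. Its ibrutinib call (-0.25) was lost on leaving out untreated 2 or ibrutinib 1 or 3 (adjusted p = 0.073 to 0.101).

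ACLY (ENSG00000131473, chromosome 17, 41866908 to 41930542, minus strand) measured 117, 99.5 and 108 FPKM untreated, 77.3, 77.8 and 75.6 with ibrutinib, 53, 55.3 and 59 with asparaginase and 40.6, 44.5 and 46.6 with both in Nalm6 (combination -1.28 ± 0.067, limma adjusted p = 4.11e-08). ACLY in Sem measured 104, 108 and 106 FPKM untreated, 85.8, 90.7 and 88.9 with ibrutinib, 83.2, 85.8 and 88.7 with asparaginase and 71.6, 76.3 and 75.5 with both (-0.51 ± 0.037, limma adjusted p = 1.03e-06). The combination was lowest in both lines. ACACA (ENSG00000278540, chromosome 17, 37084988 to 37406818, minus strand) encodes acetyl-CoA carboxylase, the gate to fatty acids. ACACA fell in Nalm6 to 45.2% of untreated (-1.04 ± 0.054, limma adjusted p = 4.09e-08) and measured 13.1, 15 and 13.4 FPKM untreated, 10.7, 11.1 and 11.2 with ibrutinib, 10.4, 11.5 and 10.7 with asparaginase and 8.78, 9.56 and 8.83 with both in Sem (-0.56 ± 0.055, limma adjusted p = 8.15e-06). Its combination libraries were the lowest in both lines, without overlap, and its ibrutinib call in Nalm6 (-0.25) was lost on leaving out untreated 1 or ibrutinib 2 (adjusted p = 0.0522 to 0.053). ACSS2, which makes acetyl-CoA from acetate, measured 3.34, 3.85 and 3.66 FPKM untreated, 4.31, 4.39 and 4.26 with ibrutinib, 2.4, 2.61 and 2.83 with asparaginase and 4, 3.88 and 4.37 with both in Sem, above untreated with ibrutinib (0.21 ± 0.063, limma adjusted p = 0.0214) and below with asparaginase (-0.36 ± 0.063, limma adjusted p = 0.00186). The rise was lost on leaving out untreated 1 or ibrutinib 1 or 2 (adjusted p = 0.0508 to 0.0814). In Nalm6 its combination call (-0.26) was lost on leaving out untreated 1 or 3 or combination 1 (adjusted p = 0.0564 to 0.0978).

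All 5 enzymes that lengthen or desaturate fatty acids fell in Nalm6 with the combination (31.3% of all genes tested fell). SCD (ENSG00000099194, chromosome 10, 100347124 to 100364834, plus strand) encodes the stearoyl-CoA desaturase that makes oleate. SCD measured 102, 91.2 and 101 FPKM untreated, 66.7, 65.1 and 64.1 with ibrutinib, 28.6, 28.4 and 29.9 with asparaginase and 19.8, 19.2 and 20.4 with both in Nalm6, and the combination left 20.2% of the untreated mean (-2.25 ± 0.049, limma adjusted p = 3.37e-10) with no overlap between groups. SCD in Sem measured 76.1, 86.1 and 82.9 FPKM untreated, 72.8, 73.7 and 74.3 with ibrutinib, 51.4, 52.1 and 50.4 with asparaginase and 55.5, 56.3 and 54.9 with both (-0.55 ± 0.041, limma adjusted p = 1.22e-06), again 4 groups apart but with asparaginase lowest. The smaller change with ibrutinib in Sem (-0.15) turned to 0.05 under quantile normalization. FADS2 (ENSG00000134824, chromosome 11, 61792980 to 61867354, plus strand) measured 10.1, 9.26 and 10.6 FPKM untreated, 7.38, 7.73 and 7.68 with ibrutinib, 4.4, 5.36 and 5.22 with asparaginase and 4.03, 5.05 and 4.77 with both in Nalm6 (-0.97 ± 0.083, limma adjusted p = 1.68e-06 with the combination). FADS2 in Sem measured 72.4, 70.5 and 69.2 FPKM untreated, 62.6, 62.6 and 63.3 with ibrutinib, 47.5, 49.4 and 48.8 with asparaginase and 50.1, 52.5 and 52.2 with both (-0.45 ± 0.031, limma adjusted p = 6.56e-07). Its ibrutinib call in Nalm6 (-0.35) was lost on leaving out untreated 1 or 3 or ibrutinib 1, 2 or 3 (adjusted p = 0.0552 to 0.084), and its ibrutinib change in Sem (-0.17) turned to 0.04 under quantile normalization. FADS1, the next desaturase, fell by 0.90 with the combination in Nalm6; in Sem it changed by -0.10, a call lost on leaving out untreated 2 or 3, ibrutinib 1, 2 or 3, asparaginase 1 or 2 or combination 1 or 2 (adjusted p = 0.0521 to 0.179) that became a call in the other direction, 0.14, under quantile normalization. ELOVL6 fell by 1.02 in Nalm6 and by 0.18 in Sem, the latter 0.08 under quantile normalization. ELOVL5, an elongase of polyunsaturated fatty acids, changed by -0.17 in Nalm6 with the combination. That call was lost on leaving out untreated 1 or 2 or combination 2 or 3 (adjusted p = 0.0536 to 0.0741) and its direction turned to 0.13 under quantile normalization.

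The combination was then set against each drug alone. In Nalm6 adding ibrutinib to asparaginase lowered 14 of the 34 genes and raised 3 (background 12% and 9.79%; 14 and 5 after quantile normalization). The largest falls were FASN (-0.59 ± 0.14, limma adjusted p = 0.0139), SCD (-0.53) and DHCR7 (-0.48). The 3 that rose were NPC1 (0.51), INSIG1 (0.40) and INSIG2 (0.30). The FASN call was lost on leaving out asparaginase 2 (adjusted p = 0.0531) and that of INSIG2 on leaving out ibrutinib 1, asparaginase 2 or 3 or combination 1 (adjusted p = 0.0556 to 0.117). In Sem the same addition raised 19 and lowered 5 (background 18.6% and 19.8%; 19 and 1 after quantile normalization). TM7SF2 (0.72 ± 0.044, limma adjusted p = 6.71e-07), INSIG1 (0.59), ACSS2 (0.49) and NPC1 (0.42) rose most. ACACA (-0.24), ACLY (-0.20), SREBF1 (-0.19), ELOVL6 (-0.16) and SCAP (-0.14) fell. The SCAP call was lost on leaving out asparaginase 2 or combination 1 or 3 (adjusted p = 0.0515 to 0.0691). The difference between the 2 lines in this comparison was not tested.

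Adding asparaginase to ibrutinib lowered 22 and raised 3 genes in Nalm6 (background 27.7% and 29.5%), from SCD (-1.67 ± 0.049, limma adjusted p = 2.68e-09) to NPC1 (0.66 ± 0.081, limma adjusted p = 4.55e-05). In Sem it lowered 11 and raised 1 (background 7.3% and 4.81%; 8 and 2 after quantile normalization), from SCD (-0.40 ± 0.041, limma adjusted p = 0.000121) to NPC1 (0.18 ± 0.043, limma adjusted p = 0.0183). The NPC1 call in Sem was lost on leaving out ibrutinib 1 or 3 or combination 3 (adjusted p = 0.0588 to 0.0743).

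The interaction is how far the log2 change with both drugs departs from the 2 single-drug changes added up. Above 0, a gene that fell with each drug fell less than that total. In Nalm6 7 genes were above 0 and 1 below (background 2.99% and 2.59%), and the median of the 34 was 0.25 beside 0.001 for all genes tested. INSIG1 had the largest value (1.19 ± 0.07, limma adjusted p = 3.81e-05). IDI1 (0.72), HMGCS1 (0.63), FDFT1 (0.54), NPC1 (0.53), MSMO1 (0.45) and SQLE (0.32) followed, with adjusted p from 0.000248 to 0.0413 by limma. PMVK was below 0 (-0.42 ± 0.069, limma adjusted p = 0.00637). Leaving out ibrutinib 2 or asparaginase 2 left 5 genes called, and leaving out the libraries that stood apart left 13 called. Single calls were lost for IDI1 on leaving out untreated 2 or 3, ibrutinib 1, 2 or 3, asparaginase 2 or 3 or combination 2 (adjusted p = 0.0513 to 0.101), for SQLE on leaving out untreated 1, ibrutinib 1 or 2, asparaginase 2 or 3 or combination 3 (adjusted p = 0.0525 to 0.0631), and for NPC1 on leaving out ibrutinib 2 or 3, asparaginase 2 or 3 or combination 3 (adjusted p = 0.0525 to 0.0636).

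In Sem 11 genes were above 0 and 0 below (background 0.76% and 0.775%, limma), with a median of 0.25 beside 0.004. They were MVD (0.52 ± 0.059, limma adjusted p = 0.00167), INSIG1 (0.48), IDI1 (0.45), LSS (0.44), HSD17B7 (0.44), ACAT2 (0.43), HMGCS1 (0.41), TM7SF2 (0.41), FDFT1 (0.40), SQLE (0.28) and FADS2 (0.25). Of the 11, 9 were sterol enzymes, 1 was a fatty acid enzyme and the last was INSIG1. The call of SQLE was lost in each of the 12 fits that left out 1 library (adjusted p = 0.0528 to 0.111), that of HSD17B7 on leaving out untreated 1 or 3, ibrutinib 1 or 3, asparaginase 1, 2 or 3 or combination 2 or 3 (adjusted p = 0.0627 to 0.0911) and that of FADS2 on leaving out ibrutinib 1, asparaginase 1 or combination 2 or 3 (adjusted p = 0.0565 to 0.067). The fatty acid genes FASN (0.15, 95% interval -0.1 to 0.41) and ACACA (0.06, 95% interval -0.11 to 0.23) were not called in Sem, nor in Nalm6 (-0.05, 95% interval -0.5 to 0.4, and -0.18, 95% interval -0.35 to -0.01).

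**Figure D4:**
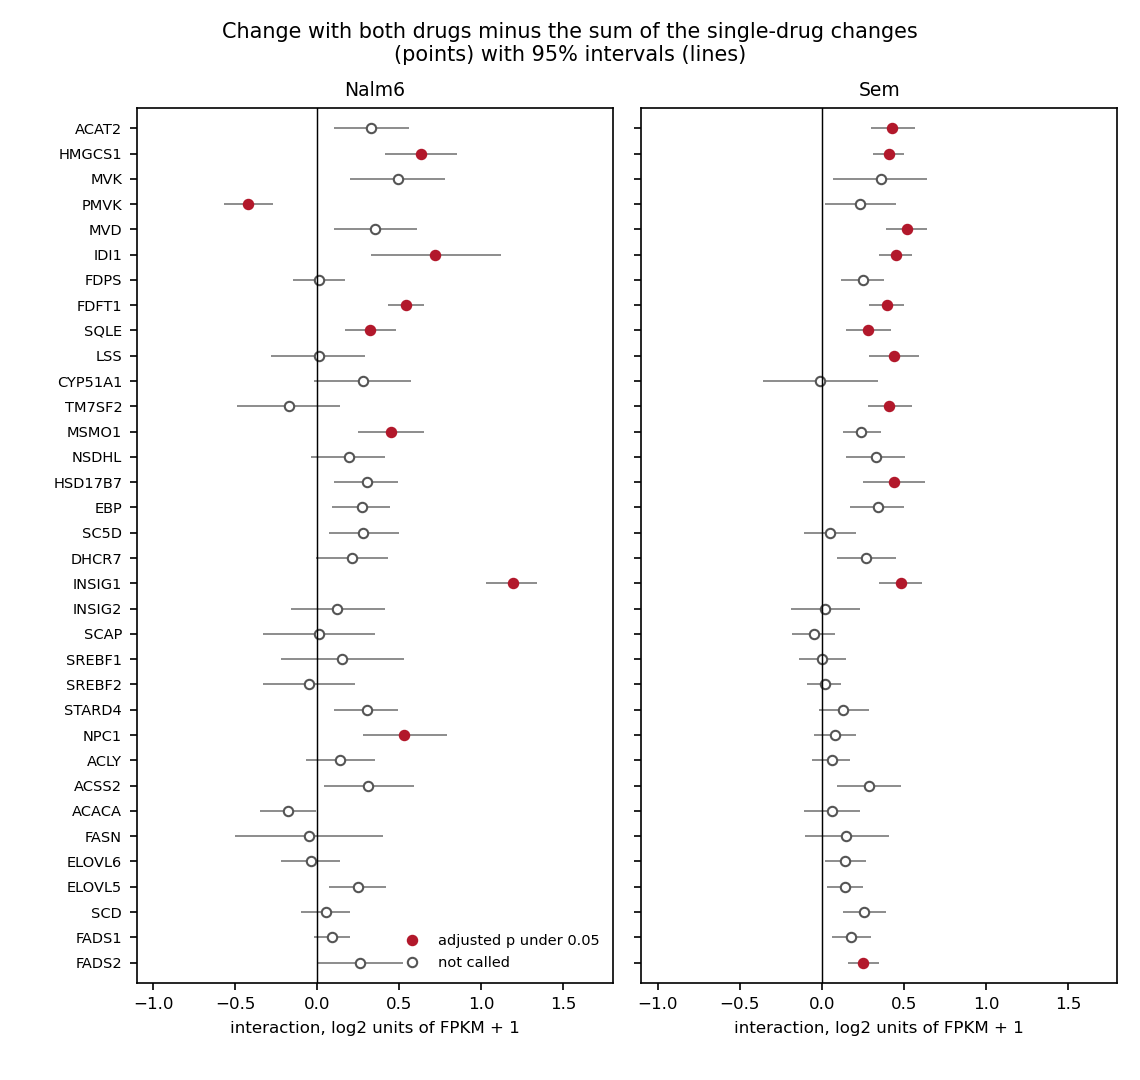
Interaction on the log2 scale of FPKM + 1 (x axis) for each of the 34 genes (y axis) in Nalm6 (left) and Sem (right), with 95% intervals; filled points have a limma adjusted p under 0.05. INSIG1 lies at 1.19 in Nalm6 and 0.48 in Sem, and PMVK in Nalm6, at -0.42, is the one filled point below 0.

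The last comparison asked whether the effects differed between the lines, as the effect in Sem minus that in Nalm6 in 1 fit of all 24 libraries. For ibrutinib 13 genes had a higher and 1 a lower value in Sem (background 7.56% and 6.11%). For asparaginase 19 were higher and 2 lower (background 17.7% and 15.7%). For the combination 26 were higher and 2 lower (background 22.2% and 18.6%). The median difference was 0.24, 0.33 and 0.54, beside 0.013, -0.007 and 0.016 for all genes. For the combination the largest were HMGCS1 (1.89 ± 0.076, limma adjusted p = 1.09e-12), SCD (1.71) and DHCR7 (1.43). FASN (1.13) and FDFT1 (1.12) followed, and all 5 had the smaller fall in Sem. For asparaginase HMGCS1 (1.38) and SCD (1.06) again came first. For ibrutinib INSIG1 (0.90 ± 0.063, limma adjusted p = 1.39e-08) and HMGCS1 (0.73) did.

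PMVK was lower in Sem for all 3 effects (-0.58, -0.58 and -0.51), and TM7SF2 for asparaginase (-0.96 ± 0.11, limma adjusted p = 2.25e-06) and the combination (-0.33, a call lost on leaving out Nalm6 untreated 3, Nalm6 combination 2 or 3, Sem untreated 1 or Sem combination 2 (adjusted p = 0.0532 to 0.075)). The 6 genes not called for the combination were IDI1 (-0.12, 95% interval -0.41 to 0.17), HSD17B7 (0.16, 95% interval -0.02 to 0.33), INSIG2 (-0.05, 95% interval -0.3 to 0.19), SCAP (0.08, 95% interval -0.18 to 0.33), NPC1 (-0.12, 95% interval -0.31 to 0.07) and ELOVL5 (0.13, 95% interval -0.01 to 0.26). These intervals leave room for differences of the size of several of the calls above.

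**Figure D5:**
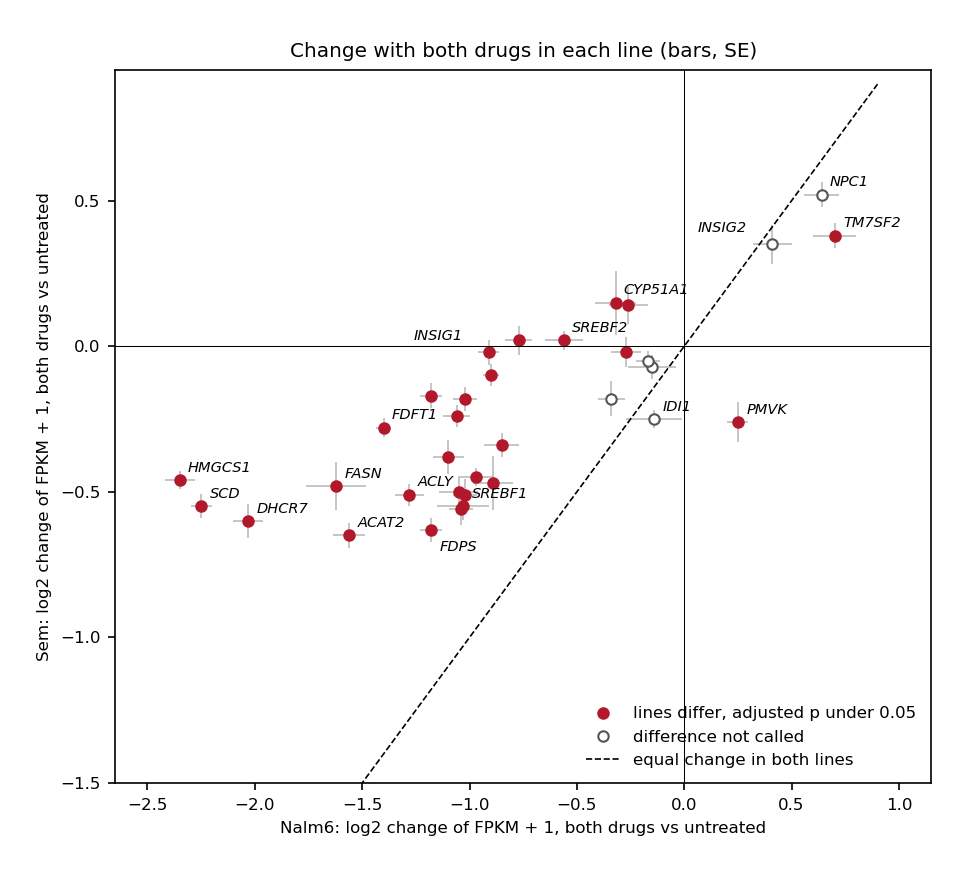
Log2 change of FPKM + 1 with the combination in Nalm6 (x axis) and in Sem (y axis) for the 34 genes, with SE as bars; filled points differ between the lines at a limma adjusted p under 0.05 and the dashed line marks equal change. HMGCS1 at -2.35 and -0.46 lies farthest above the line, and PMVK at 0.25 and -0.26 below it.

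The CCAAT box was set beside the changes. Of the 22 genes with one in the RefSeq window, 20 fell and 1 rose with the combination in Nalm6 (median log2 change -0.94) and 15 fell and 1 rose in Sem (-0.36). Of the 8 without one (CYP51A1, ELOVL6, FADS1, INSIG2, NPC1, PMVK, SCAP and SREBF1), 4 fell and 3 rose in Nalm6 (-0.24) and 4 fell and 2 rose in Sem (-0.08). The shares of all genes were 31.3% lower and 32.4% higher in Nalm6 and 26.3% and 26.6% in Sem, and the rises among the 8 are near them. This is a description of 30 genes without a test, and TM7SF2, which rose, is among those with the box. ACAT2, FDFT1, SQLE and FASN had no window and are left out. Among the 8, INSIG2, NPC1, SCAP and SREBF1 sense or transport sterols, as do INSIG1, SREBF2 and STARD4 with the box. That role had a median of -0.56 in Nalm6 and 0.02 in Sem, so box and role were not separated here.

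Genes around the pathway were taken from 7 lists and described by counts alone, to be read against the shares of all genes with the combination. Those shares were 32.4% higher and 31.3% lower in Nalm6, and 26.6% and 26.3% in Sem. Of 14 tested genes of other sterol steps and SREBP targets, 5 rose and 7 fell in Nalm6 with the combination (median -0.11), and 3 rose and 9 of 15 fell in Sem (-0.18). In Sem the largest rise was that of NPC2, the partner of NPC1 in the lysosome (0.43 ± 0.076, limma adjusted p = 0.000613). Of 11 genes of SREBP processing and degradation, 6 rose and 1 fell in Nalm6 and 4 and 3 in Sem, the latter near the shares of all genes.

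Liver X receptors respond to sterol surplus and drive cholesterol export. Their target ABCA1, the exporter, measured 0.764, 0.585 and 0.565 FPKM untreated, 1.38, 1.3 and 1.37 with ibrutinib, 3.42, 3.23 and 3.6 with asparaginase and 4.53, 4.46 and 4.74 with both in Nalm6, with no overlap between groups. It passed the filter only through the treated groups, where it was higher, so no test of it is given. It stayed under the filter in Sem. ABCG1, a related exporter, changed in Nalm6 by 0.39 with ibrutinib and -0.32 with asparaginase, both called, and by -0.14 with the combination, which was not. Over the list 4 of 7 tested genes rose and 1 fell in Nalm6 and 1 and 2 of 5 in Sem, where MYLIP, a ubiquitin ligase, fell (-0.64), while it rose in Nalm6 (0.55). With 5 genes, the Sem counts are near the shares of all genes.

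In the isoprenoid and prenyl transfer list 9 of 16 fell and 2 rose in Nalm6, and 11 and 1 in Sem. PDSS1, which makes the side chain of coenzyme Q, fell most in both lines (-1.66 ± 0.083, limma adjusted p = 2.88e-08 and -0.77 ± 0.071, limma adjusted p = 5.06e-06). Of the other genes of fatty acid synthesis, elongation and activation, 14 of 19 fell and 4 rose in Nalm6 and 11 of 20 and 5 in Sem. FABP5, a fatty acid binding protein, fell most in both (-2.23 ± 0.075, limma adjusted p = 1.85e-09 and -0.95 ± 0.068, limma adjusted p = 8.44e-07); in Nalm6 it measured 127, 130 and 142 FPKM untreated, 95.8, 103 and 108 with ibrutinib, 38.6, 37.8 and 39.3 with asparaginase and 31.1, 26.4 and 25.4 with both, with no overlap between groups. FADS3 rose most in Nalm6 (0.58).

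Glycerolipid synthesis had 5 of 16 genes higher and 5 lower in Nalm6 (median 0.03), and 6 and 3 in Sem (0.05). These counts are near the shares of all genes. CDS2, which makes CDP-diacylglycerol, rose most in both (0.73 and 0.53). Fatty acid oxidation, the opposite route, had 4 of 19 genes higher and 6 lower in Nalm6, and 4 and 5 of 18 in Sem, also near those shares. HADH fell most in Nalm6 (-0.93) and DECR1 rose most (0.54). The counts over these lists include genes near the filter that passed it through the groups where they were higher. They were ABCA1, ACSL1, CPT1B and PGGT1B in Nalm6 and ELOVL2, ME1 and CPT1A in Sem. Any call of these genes rests on that selection.

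Strandedness was not stated for the libraries, and how reads in overlapping genes were counted is not known here. Such reads could have been shared or left out. CYP51A1 shares 79.4% of its exonic bases with AC000120.2 on the same strand, which is listed at 0. Strandedness cannot separate genes on the same strand. If reads in shared bases were left out, both genes would read too low, which was not tested. ACAT2 shares 9.2% with TCP1 on the other strand, which averaged 75.1 FPKM over the 24 libraries, 26.5% with SOD2 and 33.9% with SOD2-OT1, which averaged 0.386 and 0.272. FDPS shares 18.6% with RUSC1-AS1, HMGCS1 15.0% with AC114947.2 and IDI1 14.8% with IDI2-AS1, all on the other strand and below 5 FPKM on average. Smaller overlaps on the other strand had partners of higher average FPKM. NPC1 shares 6.0% with RMC1 (12.2 FPKM), SREBF1 6.9% with RAI1 (7.99), MVK 4.7% with MMAB (5.36) and ACLY 3.0% with AC125257.2 (21.7). On the same strand FADS2 shares 0.4% with FEN1 (75.9) and TM7SF2 0.5% with VPS51 (22.3). FADS1 and FADS2 share 490 bases.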

How the data were processed

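RNA-seq libraries of 24 samples were processed by the submitters with fastp, STAR and featureCounts on hg38, per the submitters' processing notes (versions and strandedness are not given in the sources used here). The authors deposited a table of FPKM per gene, with identifiers, starts and ends that match GENCODE 29 for all 34 genes. In it, 299165 values of 1 or more (21.2% of 1409640) had lost their decimal point; values between 0 and 1 were intact. Because each value times gene length is a whole number of reads (largest distance 9.1e-13 reads), only the power of 10 was open. It was chosen for each gene jointly over the 12 libraries of a line, with Student t priors (5 degrees of freedom; log10 scales 0.07 for replicates, 0.1 for ibrutinib, 0.13 for asparaginase and 0.08 for the interaction). On simulated damage 99.994% of 299261 values came back correct, with all 816 values of the 34 genes; every value of the 34 genes had been damaged, and 0 had a posterior under 0.99. The simulation drew around the restored means, so a whole group placed at a wrong power would not show. At the median library 1 read in 1 kb stood for 0.0601 FPKM, which limits low values.

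Genes that reached 1 FPKM in 3 or more libraries of a fit were tested with limma 3.58.1 (R 4.3.3; limma-trend, two-sided) on log2(FPKM + 1), a scale that understates folds at low FPKM, with Benjamini-Hochberg adjustment over all genes tested; calls are at an adjusted p under 0.05. Each line was fitted alone (12 libraries, 8 residual degrees of freedom, 6 comparisons), and both lines together (16 degrees of freedom) for the 4 differences between lines. Test scripts were tested on simulated data. Motifs were counted with Python 3.11.15. Alternatives covered the pseudocount, filter, scaling, fit, GC and length, uncertain decimals and left-out libraries. The members and lists were chosen with earlier results of these data known. Any of the 34 genes could be named; values per library are given for the 8 with the largest called change with the combination in each line, those called against the majority, those with a called interaction, and INSIG1, INSIG2, SCAP, SREBF1 and SREBF2. Of each related list the genes with the largest rise or fall could be named, with ABCA1 and ABCG1; a few such genes are not reported here.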

Additional observations from a re-analysis of the deposited data

Results flagged for a closer look

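Effects that differed between Nalm6 and Sem, tested as a difference of effects in 1 limma fit of all 24 libraries, are listed here as values. The effect of ibrutinib differed for 14 of the 34 genes, that of asparaginase for 21 and that of the combination for 28. In 4 cases a gene was called in opposite directions in the 2 lines. PMVK rose in Nalm6 and fell in Sem with ibrutinib (difference Sem minus Nalm6 -0.58 ± 0.085, limma adjusted p = 9.34e-05) and with the combination (-0.51 ± 0.085, limma adjusted p = 8.78e-05). SC5D fell in Nalm6 and rose in Sem with ibrutinib (0.43 ± 0.084, limma adjusted p = 0.00145), and TM7SF2 rose in Nalm6 and fell in Sem with asparaginase (-0.96 ± 0.11, limma adjusted p = 2.25e-06). The Nalm6 call of PMVK with ibrutinib was lost on leaving out untreated 1 or 3 or ibrutinib 2 or 3 (adjusted p = 0.0829 to 0.101), that of SC5D on leaving out untreated 2 or 3 or ibrutinib 1 or 2 (adjusted p = 0.0607 to 0.0887), and the Sem call of SC5D on leaving out untreated 1 or 3, ibrutinib 1, 2 or 3, asparaginase 1 or combination 2 (adjusted p = 0.0511 to 0.133).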

How the results depend on the processing

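Across 10 other settings and the fits that left out 1 library, the count of genes called stayed within 1.5 times the reported one for all comparisons but the interaction in Nalm6. There 8 genes were called, 16 with all 24 libraries in 1 fit, 14 with the GC and length correction and 13 without the libraries that stood apart; leaving out 1 library gave 5 to 9. The share of higher calls moved by over 10 points for the sets of calls in Sem with ibrutinib (6 higher and 20 lower; 9 and 12 under TPM, 7 and 11 under quantile normalization), with the combination (3 and 23; 7 and 15 under quantile normalization), and for the combination against asparaginase (19 and 5; 19 and 1) and against ibrutinib (1 and 11; 2 and 8), both under quantile normalization. Of 352 single calls, 11 turned direction under quantile normalization and none in the other settings run: SREBF2 with asparaginase to 0.01 in Nalm6 and 0.04 in Sem, ELOVL5 with the combination in Nalm6 to 0.13, with ibrutinib in Sem IDI1 to 0.04, FDFT1 to 0.07, MSMO1 to 0.02, SCD to 0.05 and FADS2 to 0.04, and with the combination in Sem SQLE to 0.02, ELOVL6 to 0.08 and FADS1 to 0.14 (limma adjusted p = 0.00721). The cause was not tested.

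Same replicate numbers were not taken to pair libraries, since the labels do not tie them and the pairs' correlations were not all over 0.1. Deviations of same-numbered libraries had r, taken across genes, of -0.567 to 0.766 in Nalm6 (different numbers -0.638 to 0.684). In Sem r was 0.0116 to 0.415, over 0.1 in 11 of 18 pairs, against -0.304 to 0.0731 for different numbers, a hint from the data, not the design. With the replicate block the interaction called 6 genes in Nalm6 and 11 in Sem, 9 of them among the 11 reported (SQLE and HSD17B7 were lost, limma adjusted p = 0.0511 and 0.0507). The combination called 32 and 26, and the combination against ibrutinib 15 in place of 12 in Sem. In all, 12 of the single calls were lost, SC5D with ibrutinib in Sem among them (limma adjusted p = 0.0597). Scaling recovered reads by median ratios, an alternative chosen after seeing the data, called 32 and 27 genes with the combination. The planned edgeR and DESeq2 fits were not run, since the deposited values are not counts.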
